A study of Mus musculus with 6 samples.

Results

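Hepcidin and the genes of iron handling were described in 6 MACE libraries of Atxn2 knockout and wild-type mice. The 10 genes were chosen by name with the KO against WT tag counts of these libraries already known, so they are treated as selected on that contrast, and all 10 were found among the 22924 genes and joint features of the count table. They are the hepcidin genes Hamp and Hamp2, the iron-sensing genes Hfe2 and Tfr2, and the uptake genes Trf, Tfrc and Slc11a2. The others are the ferritin chain genes Fth1 and Ftl1 and the exporter gene Slc40a1. MACE (massive analysis of cDNA ends) gives 1 tag per transcript near its 3' end, so tag numbers can be compared between genes without correction for length. The mice were C57BL/6, either homozygous for the loss of Atxn2 (KO) or wild type (WT). Liver, cerebellum and hippocampus each gave 1 KO and 1 WT library, and each library was a pool of 3 animals at 6 months. No other allele or agent is named in the labels, and they do not state the type of Atxn2 mutation. A KO against WT ratio within a tissue therefore compares 2 libraries and has no replicate check.

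Hepcidin is a peptide hormone made mainly by hepatocytes that binds the iron exporter ferroportin, the product of Slc40a1, and causes its breakdown, which lowers the release of iron into plasma. Iron bound to transferrin, the product of Trf, is taken into cells by transferrin receptor 1 (Tfrc) and leaves the endosome through the divalent metal transporter Slc11a2, while ferritin stores it in shells of heavy (Fth1) and light (Ftl1) chains. Hepatocytes sense iron through hemojuvelin (Hfe2, now named Hjv), a co-receptor for bone morphogenetic proteins, and through transferrin receptor 2 (Tfr2), and both act on hepcidin. Mice carry a second hepcidin gene, Hamp2, beside Hamp, and hepcidin mRNA in mouse liver is known to differ between strains and sexes.

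The hepcidin genes lie 18186 bases apart on the minus strand of chromosome 7, at chr7:30942368-30944029 for Hamp and chr7:30922372-30924181 for Hamp2 (RefSeq, GRCm38.p6). The other genes, all protein coding, lie at chr3:96525163-96529216 for Hfe2, chr5:137569822-137588081 for Tfr2, chr9:103208876-103230286 for Trf and chr16:32608896-32632794 for Tfrc. Slc11a2 lies at chr15:100387898-100424209, Fth1 at chr19:9980600-9985111, Ftl1 at chr7:45457944-45459886 and Slc40a1 at chr1:45908070-45926532. Because the hepcidin genes differed in these libraries, the 250 bases before each start site are shown, at chr7:30944030-30944279 for Hamp and chr7:30924182-30924431 for Hamp2. Capitals mark the motifs searched, GGCGCC, the core of a BMP-responsive element bound by Smad proteins, and TTCNNNGAA, the STAT motif; each reads the same on both strands.

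Hamp promoter: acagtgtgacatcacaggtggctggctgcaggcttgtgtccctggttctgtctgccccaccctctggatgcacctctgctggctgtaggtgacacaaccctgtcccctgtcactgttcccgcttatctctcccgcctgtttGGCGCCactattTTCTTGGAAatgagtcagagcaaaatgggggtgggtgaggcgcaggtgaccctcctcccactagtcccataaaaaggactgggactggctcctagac

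Hamp2 promoter: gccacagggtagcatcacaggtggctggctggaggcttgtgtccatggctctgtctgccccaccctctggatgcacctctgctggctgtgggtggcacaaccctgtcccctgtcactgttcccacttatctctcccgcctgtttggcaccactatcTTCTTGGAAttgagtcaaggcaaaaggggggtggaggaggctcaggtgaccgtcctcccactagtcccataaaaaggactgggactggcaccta

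The Hamp window held GGCGCC from position -109 and TTCNNNGAA from position -97 of the start site. The Hamp2 window held TTCNNNGAA from position -94 and no GGCGCC, and the windows were 91.9% identical over 247 aligned bases. GGCGCC stood in 9.59% and TTCNNNGAA in 7.02% of 32851 promoter windows of that length. RefSeq promoter windows were at hand for 6 of the 10 genes, of which only Tfrc, beside Hamp, had a GGCGCC. A motif match is a description of the letters and not evidence of a bound factor.

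The coding sequence of the mature hepcidin peptide shows how the 2 genes differ. The last 25 codons of each open reading frame follow, from GENCODE M21 transcripts on GRCm38, with capitals at the 14 of 75 bases that differ.

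Hamp mature part: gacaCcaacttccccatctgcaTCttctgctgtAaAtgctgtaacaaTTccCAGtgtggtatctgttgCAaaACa

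Hamp2 mature part: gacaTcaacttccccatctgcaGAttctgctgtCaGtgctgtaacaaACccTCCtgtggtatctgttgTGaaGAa

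Identity was 81.3% over this stretch, 93.7% over the open reading frame of 252 bases and 91.7% over the last 250 bases of the transcripts, from which MACE tags come. Only 3 tags in all, in WT liver, matched both genes equally well and stood in a joint row, so the split between the hormones rests on tags assigned to 1 gene.

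Ferritin, ferroportin and transferrin receptor mRNAs carry iron responsive elements, hairpins that iron regulatory proteins bind when iron is low. A search for an unpaired C, 5 bases, the loop CAGTGN and 5 bases pairing with the first 5 (G with T allowed) found 17-base matches in 0.628% of 141767 GENCODE transcripts. Capitals mark the loop.

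Fth1: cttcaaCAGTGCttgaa

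Ftl1: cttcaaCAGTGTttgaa

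Slc40a1: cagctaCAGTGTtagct

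Tfrc site 1: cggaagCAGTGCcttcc

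Tfrc site 2: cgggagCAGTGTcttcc

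Tfrc site 3: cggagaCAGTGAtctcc

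Tfrc site 4: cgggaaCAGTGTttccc

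In the transcripts Fth1-201, Ftl1-201 and Slc40a1-201 the sites began at bases 93, 84 and 96. They lay near the 5' end, where a bound protein is known to block translation. In Tfrc-201 the 4 sites lay between bases 3321 and 3828 of 4890, toward the 3' end, where binding is known to stabilise the mRNA. Other transcripts differed, with the site at base 664 of 1494 in Fth1-203 and at base 1037 of 2792 in Slc40a1-202. Some further transcripts of these genes had no match. No match to this pattern was found in the transcripts of Slc11a2, Trf, Tfr2, Hamp or Hamp2, and no result is given for Hfe2. The search would miss a hairpin with another loop or with further unpaired bases in the stem. The lack of a match therefore does not show that a gene lacks an iron responsive element.

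Gene tags in sense numbered 1774523 in KO and 2727523 in WT liver, 2284820 and 2360459 in cerebellum, and 2335834 and 2139501 in hippocampus. Atxn2 had 2, 0 and 1 tags in KO liver, cerebellum and hippocampus, against 115, 167 and 194 in WT. Xist, the RNA of the inactive X chromosome in females, had 0 tags in every KO library and 87, 34 and 49 tags in WT liver, cerebellum and hippocampus, while 4 Y-linked genes together had 153 to 288 tags in KO and 160 to 263 tags in WT libraries. The sex makeup of the pools and the genotype therefore cannot be told apart in any KO against WT value. Liver markers were as labelled, with 12 of 12 hepatocyte markers summing to 183580 CPM in KO and 165220 CPM in WT liver. Levels are given in CPM, sense tags of a gene per 1e6 of the library size after scaling by TMM. The TMM factors were 0.528 and 0.577 in KO and WT liver and 1.29 to 1.40 in brain. CPM is thus not a share of the tags of a library, and levels or percentages set between liver and brain depend on this scaling.

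The iron genes formed 2 groups by tissue. Hamp, Hamp2, Hfe2, Tfr2, Trf, Slc40a1 and Ftl1 were far higher in liver than in either brain region, while Fth1, Slc11a2 and Tfrc were of the same order in all 3 tissues. Liver was compared with the mean of cerebellum and hippocampus over all 6 libraries (edgeR quasi-likelihood test, genotype as covariate, Benjamini-Hochberg over 12906 genes). Of the 10 genes, 8 rose and 1 fell in liver, beside 33.8% of all genes tested that rose and 36.3% that fell. The median log2 of the 10 was 5.29. Each tissue has 1 library of each genotype, and genotype is in the fit. These p-values therefore measure how the KO against WT difference varied between tissues, not the spread between animals. Each SD given for a tissue is that of its KO and its WT library and is no replicate spread.

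**Figure D1:**
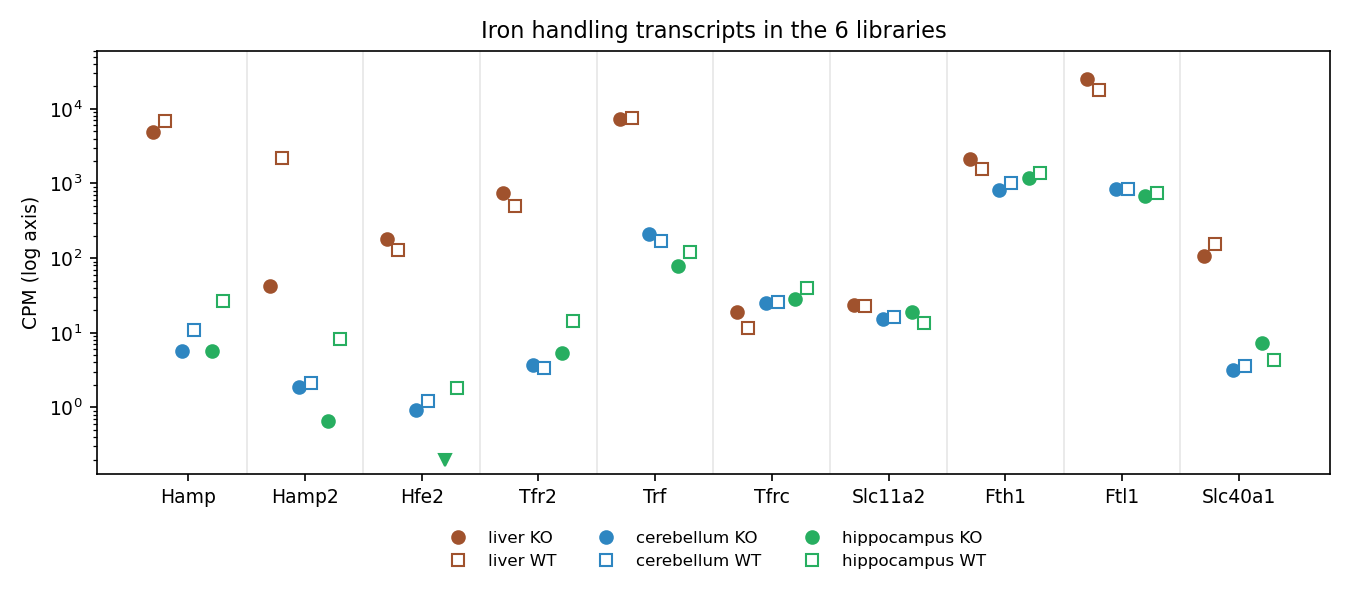
Level of each iron gene in the 6 libraries, in CPM on a log axis, with filled circles for KO, open squares for WT and colour for tissue. Hamp lies at 4819 and 6836 CPM in liver and between 5.63 and 26.2 CPM in brain, and the triangle marks Hfe2 at 0 tags in KO hippocampus.

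Of the hepcidin genes, Hamp averaged 5828 ± 1426 CPM in liver, 8.26 ± 3.72 in cerebellum and 15.9 ± 14.6 in hippocampus (SD, n = 2 each). It was higher in liver by a log2 of 9.11 (SE 0.34, adjusted p = 7.15e-16). Hamp2 averaged 1113 ± 1513, 2.00 ± 0.17 and 4.47 ± 5.38 CPM in the same order, with a log2 of 8.25 (SE 0.43, adjusted p = 2.36e-13). The SD of Hamp2 in liver exceeded its mean because the KO and WT libraries differed so widely.

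The sensing genes followed the hepcidin genes. Hfe2 averaged 154 ± 36.1 CPM in liver, 1.07 ± 0.193 in cerebellum and 0.899 ± 1.27 in hippocampus, a log2 of 7.21 (SE 0.30, adjusted p = 3.99e-15). Tfr2 averaged 625 ± 171, 3.54 ± 0.299 and 9.85 ± 6.40 CPM, a log2 of 6.68 (SE 0.24, adjusted p = 3.43e-16). In each brain library Hfe2 had between 0 and 5 tags, at or near the floor of 3 tags that replaced a count of 0 in ratios. Its brain levels thus rest on few tags.

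The uptake genes divided. Trf averaged 7361 ± 99.0 CPM in liver, 190 ± 30.2 in cerebellum and 98.8 ± 29.1 in hippocampus, and rose in liver by 5.73 (SE 0.28, adjusted p = 7.30e-14). Tfrc averaged 15.3 ± 5.50, 25.7 ± 0.498 and 33.6 ± 7.93 CPM and fell in liver, with a log2 of -1.04 (SE 0.28, adjusted p = 0.00272). The carrier of plasma iron was thus highest where its cell-surface receptor was lowest, and the Tfrc call was lost without the WT liver library (log2 -0.50). Slc11a2 averaged 23.2 ± 0.435, 15.8 ± 0.724 and 16.3 ± 3.76 CPM and did not pass (log2 0.51, SE 0.26, adjusted p = 0.0815), but with library totals in place of TMM it fell in liver (log2 -0.74).

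Of the storage and export genes, Ftl1 averaged 21375 ± 5159 CPM in liver, 853 ± 1.76 in cerebellum and 705 ± 45.8 in hippocampus, a log2 of 4.75 (SE 0.30, adjusted p = 4.88e-12). Fth1 averaged 1857 ± 398, 917 ± 137 and 1267 ± 139 CPM, and its log2 of 0.77 (SE 0.23, adjusted p = 0.00641) turned to -0.50 with library totals in place of TMM. The Fth1 call was also lost without the KO liver (0.40), KO cerebellum (0.64) or WT cerebellum (0.84) library. That scaling moved the median of all genes from -0.16 to -1.42. Slc40a1 averaged 131 ± 35.01, 3.38 ± 0.357 and 5.82 ± 2.13 CPM, a log2 of 4.85 (SE 0.22, adjusted p = 2.70e-14).

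The ferritin chains changed places between tissues. Light-chain tags made up 92.1% of ferritin tags in KO liver and 91.8% in WT liver, 51.0% and 45.7% in cerebellum, and 36.5% and 35.1% in hippocampus. By exact 95% intervals (Clopper-Pearson) the closest shares, 45.7% in WT cerebellum (44.4% to 46.9%) and 36.5% in KO hippocampus (35.3% to 37.8%), did not overlap, so the order liver, cerebellum, hippocampus held in both genotypes. Nearly all Ftl1 tags, 23446 of 23449 in KO liver and 27911 of 27915 in WT liver, stood in a row shared with a predicted near-copy, LOC100862446, so the value is that of both together. Ferritin tags were 1.43% of gene tags in KO liver and 1.11% in WT liver, and 0.234% to 0.273% in the 4 brain libraries. Counting intervals cover counting error only.

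In liver the order of levels was Ftl1, Trf, Hamp, Fth1, Hamp2, Tfr2, Hfe2, Slc40a1, Slc11a2 and Tfrc by the mean of both libraries. The values of neighbours overlapped for Fth1 and Hamp2, Hamp2 and Tfr2, and Hfe2 and Slc40a1. In both brain regions the first 5 were Fth1, Ftl1, Trf, Tfrc and Slc11a2, and Fth1 and Ftl1 overlapped in cerebellum but not in hippocampus. In hippocampus the 6 genes from Slc11a2 down to Hfe2 each overlapped with the next. Ftl1 ranked 7 of 14484 detected genes in KO liver and 8 of 15777 in WT liver, and Trf ranked 31 and 21.

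Cerebellum and hippocampus differed less. Trf rose in cerebellum relative to hippocampus by 0.95 (SE 0.32, adjusted p = 0.0289), and Tfr2 fell by 1.46 (SE 0.47, adjusted p = 0.0219), with 13.5% and 15.8% of all genes tested higher and lower. Trf had 678 and 559 tags in KO and WT cerebellum and 235 and 332 in hippocampus, and Tfr2 had 12 and 11 tags in cerebellum and 16 and 40 in hippocampus. The other 8 genes did not pass. Both calls were lost in DESeq2; the Trf call was also lost without the KO cerebellum (0.64), WT cerebellum (1.28) or KO hippocampus (0.60) library, and the Tfr2 call without the KO cerebellum (-1.55), WT cerebellum (-1.36) or WT hippocampus (-0.36) library. Trf is made by oligodendrocytes and choroid plexus in brain. The 10 oligodendrocyte markers summed to 3878 and 5075 CPM in KO and WT cerebellum and 2546 and 3179 CPM in hippocampus, and the 7 choroid plexus markers, most of it Ttr, to 2518 and 3648 CPM in cerebellum and 153 and 398 CPM in hippocampus. Ttr was also high in liver, at 38390 CPM in KO and 26554 CPM in WT. The choroid plexus sum is therefore not particular to that cell type, least of all in hippocampus, where hepatocyte markers were also found. The part of these cell types in the Trf value was not tested. In these whole-tissue samples more cells of a type and more RNA per cell cannot be told apart.

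Between the genotypes, Hamp2 in liver gave the widest difference of the 10 genes. It had 40 tags in KO liver and 3437 tags in WT liver, which was 42.7 and 2183 CPM, or 51.1-fold lower in KO (log2 -5.68, 95% counting interval -6.16 to -5.23). Hamp in the same libraries had 4516 and 10765 tags, 4819 and 6836 CPM, a log2 of -0.50 (-0.55 to -0.45). Both hepcidin transcripts were lower in KO liver, Hamp by a small and Hamp2 by a large factor. Tags measure RNA, and the action of either peptide on iron was not measured. Hamp2 ranked 3800 of 14484 detected genes in KO liver and 100 of 15777 in WT liver, while Hamp ranked 49 and 27.

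**Figure D2:**
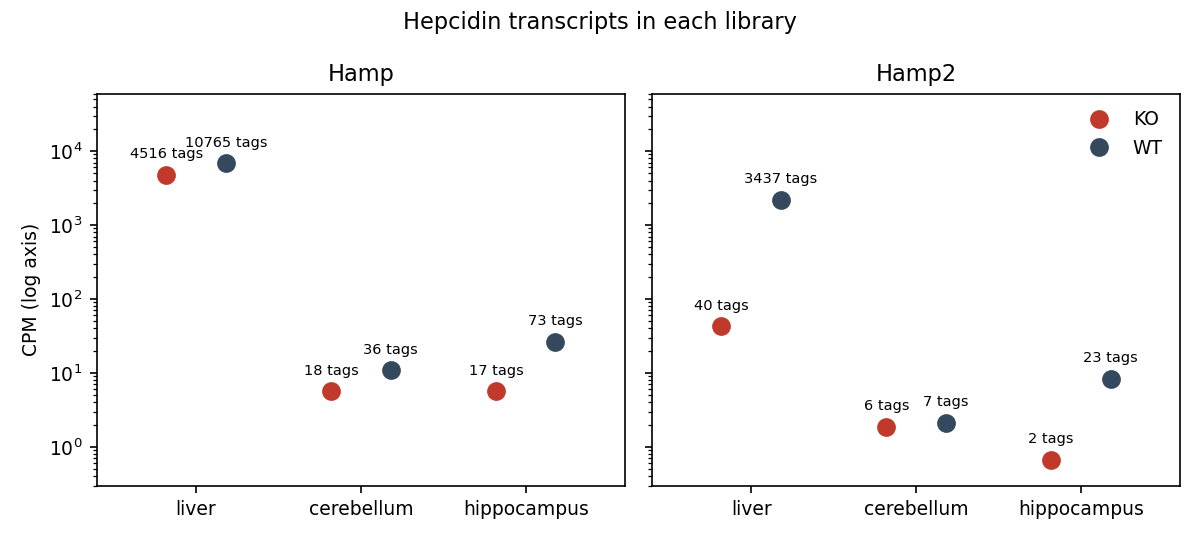
Level of Hamp and Hamp2 in each library in CPM on a log axis, with the tag count beside each point, KO left of WT. Hamp2 stands at 42.7 CPM in KO and 2183 CPM in WT liver, and at 8.27 CPM or less in every brain library.

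Counted together, hepcidin tags were 0.257% of gene tags in KO liver (exact 95% interval 0.249% to 0.264%) and 0.521% in WT liver (0.512% to 0.529%). Their summed level was 4862 CPM in KO and 9019 CPM in WT liver (log2 -0.89, interval -0.94 to -0.84). Hamp2 gave 0.878% of hepcidin tags in KO liver (0.628% to 1.19%) and 24.2% in WT liver (23.5% to 24.9%). The share does not depend on how libraries are scaled.

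Female-biased liver genes moved with Hamp2. Of 16 such genes in the table, all 16 had tags in WT liver and 9 in KO liver, 143 tags in KO and 4708 in WT, and 105 of the KO tags belonged to Prlr, the prolactin receptor. The 14 that reached a mean of 10 CPM were all lower by at least 2-fold in KO liver, with a median log2 of -5.50 and a range of -7.48 to -1.48 where a count of 0 was set to 3 tags. Over 13 male-biased genes measured there the median was 0.40. With a counting interval excluding equality also required, 1 was higher and none lower by at least 2-fold. Ugt2b38, at 8 and 30 tags in KO and WT liver (log2 -1.16), was lower by that size but failed on its interval. The Hamp2 ratio lies within the range of the female-biased genes, and Hamp, at -0.50, lies above it; the part of sex in either was not tested.

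**Figure D3:**
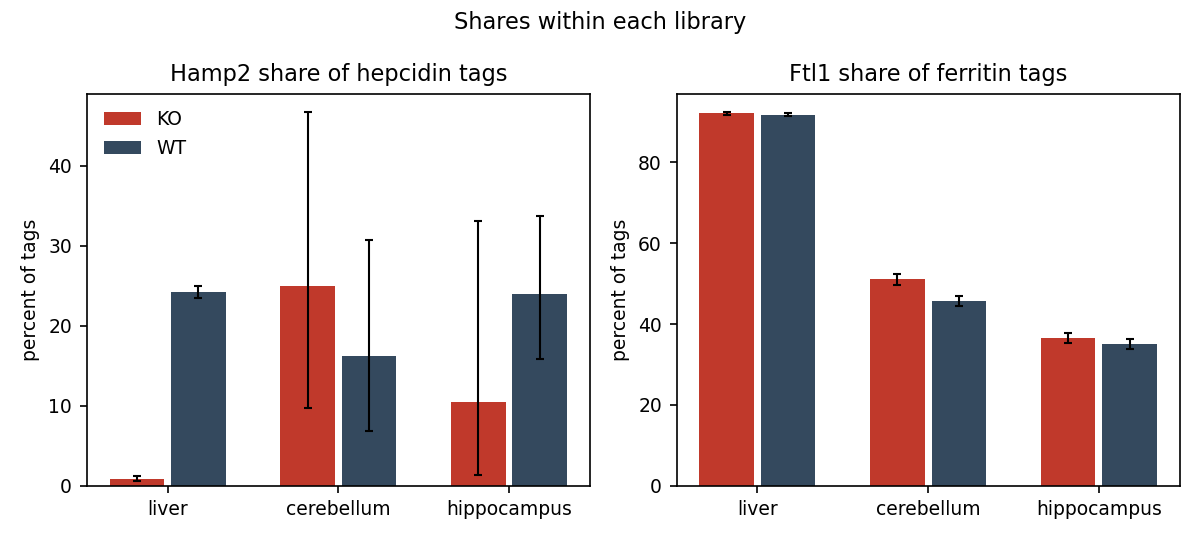
Share of Hamp2 among Hamp and Hamp2 tags (left) and of Ftl1 among Ftl1 and Fth1 tags (right) in percent, KO left of WT in each tissue, with exact 95% counting intervals. The Hamp2 share is 0.878% in KO liver and 24.2% in WT liver, and the Ftl1 share falls in the order liver, cerebellum, hippocampus.

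In brain the hepcidins were scarce. Hamp had 18 and 36 tags in KO and WT cerebellum (log2 -0.95, interval -1.86 to -0.10) and 17 and 73 tags in hippocampus (log2 -2.21, interval -3.07 to -1.44). Hamp2 had 6 and 7 tags in cerebellum (log2 -0.18, interval -2.02 to 1.62) and 2 and 23 tags in hippocampus (log2 -3.63, interval -6.76 to -1.62). The WT hippocampus library held more hepcidin tags, 96 of both, than any other brain library, against 19, 24 and 43. Over both KO brain libraries Hamp2 gave 8 of 43 hepcidin tags, or 18.6% (8.39% to 33.4%), and over both WT brain libraries 30 of 139, or 21.6% (15.1% to 29.4%). The whole interval of the KO brain share lay above the 0.878% of KO liver, and it held the 24.2% of WT liver.

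Hepatocyte transcripts were lower in the KO brain libraries, as Hamp was. All 12 hepatocyte markers had tags in every brain library, with a summed level of 295 CPM in KO and 567 CPM in WT cerebellum, and 267 CPM in KO and 1398 CPM in WT hippocampus; Alb, the most abundant, had 458 tags in KO and 2465 in WT hippocampus. Of the 10 markers measured in hippocampus, all 10 were at least 2-fold lower in KO, with a median log2 of -2.16 (-2.69 to -1.89), and the Hamp ratio of -2.21 lay within that range. As a percentage of the liver level of the same genotype, the markers had medians of 0.109% in KO and 0.338% in WT cerebellum, and of 0.116% in KO and 0.711% in WT hippocampus. Hamp stood at 0.117% and 0.159% in cerebellum and at 0.117% and 0.384% in hippocampus, within or below the marker range. Hamp2 stood at 4.39% in KO and 0.0970% in WT cerebellum and at 1.56% in KO and 0.379% in WT hippocampus, above the highest marker in both KO libraries (0.239% and 0.219%) and below the lowest in both WT libraries (0.206% and 0.392%). The KO values rest on 6 and 2 tags set against the low Hamp2 level of KO liver. The part of these transcripts in the hepcidin values was not tested.

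**Figure D4:**
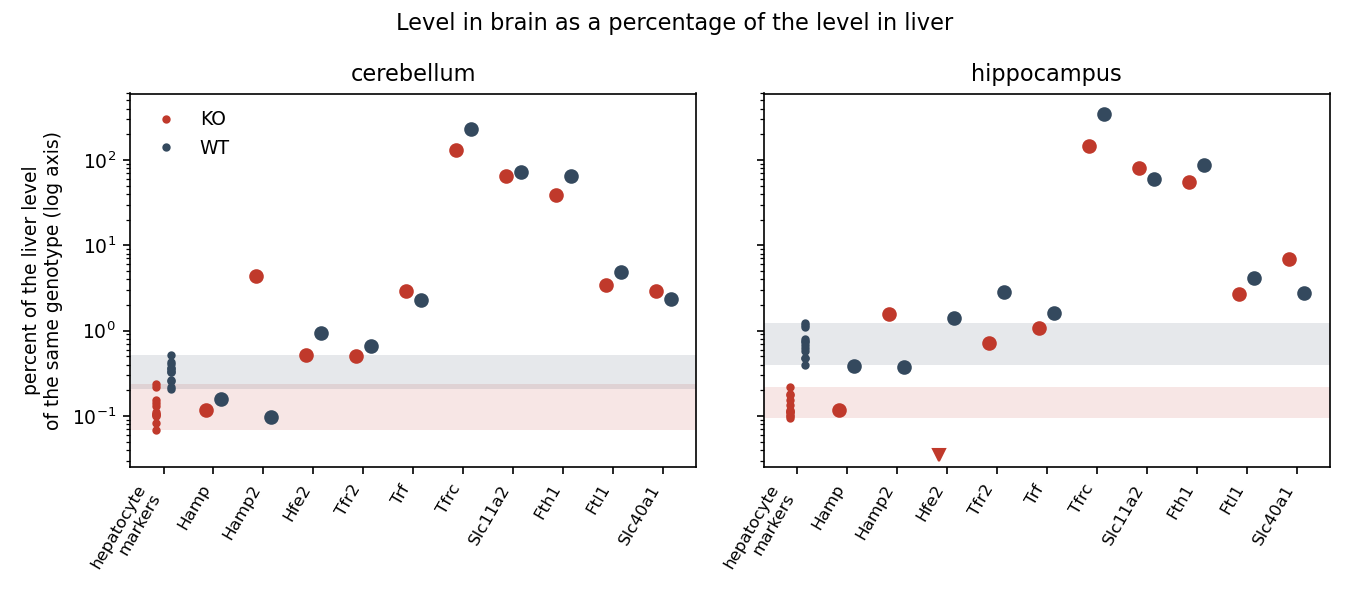
Level in cerebellum (left) and hippocampus (right) as a percentage of the liver level of the same genotype on a log axis, for 12 hepatocyte markers and the 10 iron genes, KO left of WT, with shading for the range of the markers. Hamp lies within or below the shading of its genotype, Hamp2 lies above it in KO and below it in WT, and Tfr2, Trf, Tfrc, Slc11a2, Fth1, Ftl1 and Slc40a1 lie above it in all 4 brain libraries; the triangle marks Hfe2 at 0 tags.

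The other genes were set beside the same range. Tfr2 stood at 0.714% of liver in KO and 2.85% in WT hippocampus, above the highest marker, 0.219% in KO and 1.24% in WT. Trf stood at 1.07% and 1.61% there, and at 2.91% and 2.28% in cerebellum. Slc40a1 stood at 6.86% and 2.76% in hippocampus and at 2.93% and 2.32% in cerebellum. The Slc40a1 values rest on 10 and 12 tags in KO and WT cerebellum and 22 and 12 tags in hippocampus. The part of liver transcripts in the brain values of these genes was not tested.

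In liver the intervals of Hfe2, Tfr2, Fth1 and Ftl1 lay above equality in KO against WT, those of Hamp, Hamp2 and Slc40a1 below it, and those of Trf, Tfrc and Slc11a2 included it. Over 8179 genes measured in liver, 12.6% had an interval above and 9.88% below equality; the genes were chosen with this contrast known, so nothing is read from their share. By size, an absolute log2 of at least 1 with a mean of 10 CPM and an interval excluding equality, only Hamp2 was lower, as were 3.26% of genes, and none of the 10 was higher, as were 1.55%. The median log2 of the 10 genes in liver was 0.24, against -0.01 over all genes measured. The sensing genes had 168 and 202 tags of Hfe2 in KO and WT liver (179 and 128 CPM, log2 0.48, interval 0.18 to 0.79) and 699 and 794 tags of Tfr2 (746 and 504 CPM, log2 0.56, interval 0.42 to 0.71). Both genes were thus at a higher level in the KO liver library, in which both hepcidin transcripts were lower.

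**Figure D5:**
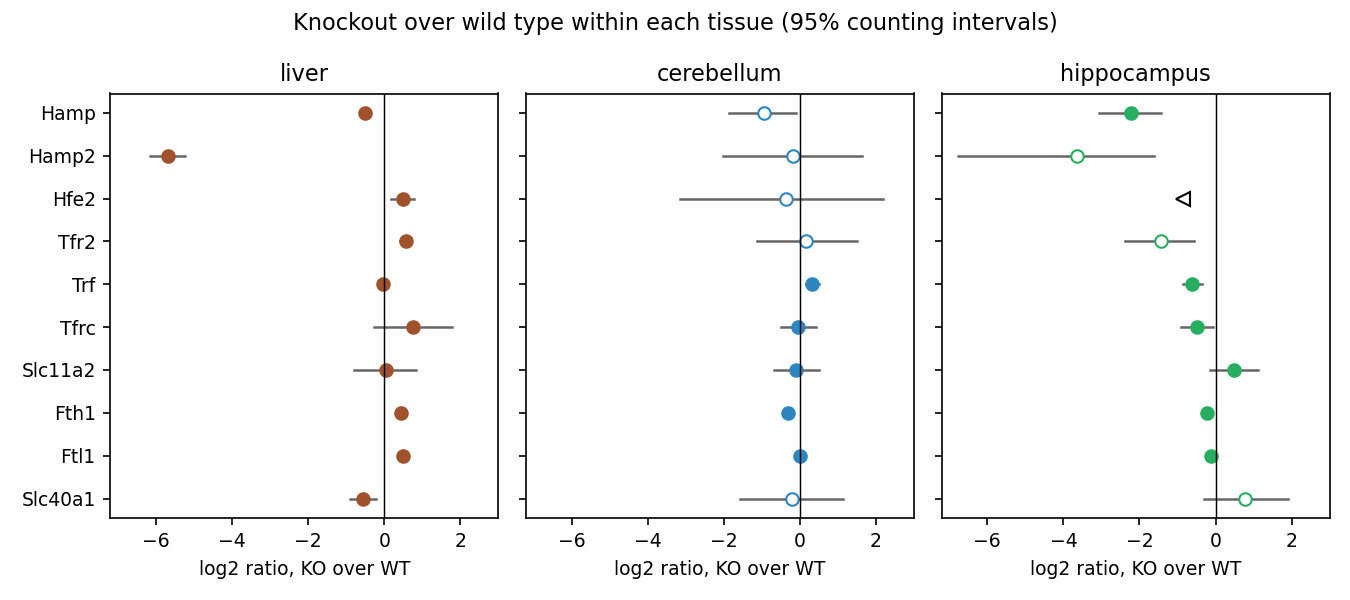
Log2 ratio of KO over WT for the 10 iron genes in liver, cerebellum and hippocampus with exact 95% counting intervals; open circles have a mean under 10 CPM and the triangle is an upper bound from 0 tags of Hfe2. Hamp2 lies at -5.68 in liver, and every other liver value lies between -0.55 and 0.75.

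The ferritin chains and the exporter differed in opposite directions in liver. Ftl1 had 23449 tags in KO and 27915 in WT liver, 25023 and 17727 CPM, a log2 of 0.50 (0.47 to 0.52). Fth1 had 2004 and 2482 tags, 2139 and 1576 CPM, a log2 of 0.44 (0.35 to 0.53). Both chains were higher by about the same factor, so the light-chain share differed little. Slc40a1, which macrophages of the liver also express, had 100 and 246 tags, 107 and 156 CPM, a log2 of -0.55 (-0.90 to -0.21). The 8 macrophage markers measured summed to 754 CPM in KO and 753 CPM in WT liver, with none past the size rule. Clec4f, at 362 and 337 CPM, gave the largest part of both sums. The markers were split, with log2 values from -0.80 to 0.28 and a median of -0.08. Marco, Cd163, Aif1 and Cd5l were lower in KO, and Csf1r, Vsig4, Emr1 and Clec4f were higher. The part of macrophages in the Slc40a1 value was not tested.

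Transferrin mRNA (Trf) in liver stood at 7291 and 7431 CPM in KO and WT, from 6832 and 11701 tags (log2 -0.03, interval -0.07 to 0.02). That value depends on scaling: with library totals it was -0.16 (-0.20 to -0.11), and with DESeq2 size factors 0.04 (-0.01 to 0.08). Tfrc had 18 tags in each liver library, 19.2 and 11.4 CPM (log2 0.75, interval -0.28 to 1.78). Slc11a2 had 22 and 36 tags, 23.5 and 22.9 CPM (log2 0.04, interval -0.80 to 0.84). At these counts a difference in either gene was not detectable unless it was large.

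In cerebellum 5 of the 10 genes reached a mean of 10 CPM and none passed the size rule, beside 0.14% of 8554 genes higher and 0.316% lower. Trf was higher in KO, at 212 CPM against 169 CPM in WT (log2 0.33, interval 0.16 to 0.49), and Fth1 was lower, at 820 against 1014 CPM (log2 -0.31, interval -0.38 to -0.23). The median of the 5 was -0.04, against -0.01 over all genes measured. Intervals above and below equality were found for 7.06% and 8.05% of genes there. Ftl1, at 854 CPM in KO and 852 CPM in WT (log2 0.00, interval -0.07 to 0.08), had an interval that included equality. Tfrc had 81 and 86 tags and Slc11a2 49 and 54 tags, with intervals that included equality.

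In hippocampus 6 genes reached a mean of 10 CPM and Hamp alone passed the size rule, beside 0.443% of 8581 genes higher and 1.05% lower. The intervals of Hamp, Trf, Tfrc, Fth1 and Ftl1 lay below equality, and that of Slc11a2 included it; over all genes 12.4% lay above and 10.6% below. The median of the 6 was -0.36, against 0.01 over all genes measured. Trf had 235 and 332 tags (78.2 and 119 CPM, log2 -0.61, interval -0.86 to -0.36) and Tfrc 84 and 109 tags (28.0 and 39.2 CPM, log2 -0.49, interval -0.91 to -0.06). Trf was thus lower in KO hippocampus and higher in KO cerebellum. Fth1 stood at 1168 and 1365 CPM (log2 -0.22) and Ftl1 at 672 and 737 CPM (log2 -0.13). Tfr2 had 16 and 40 tags (log2 -1.43, interval -2.37 to -0.56) and a mean just under 10 CPM. Hfe2 had 0 and 5 tags, and Slc40a1 22 and 12 tags (log2 0.76, interval -0.31 to 1.91). The 10 hepatocyte markers measured in hippocampus were also lower in KO (median log2 -2.16). Trf, Tfr2 and Ftl1 are far higher in liver than in brain, and the part of liver transcripts in their hippocampus ratios was not tested.

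Slc11a2 had tags at 2 alternative 3' ends, those of transcript variants 1 and 2. Of the tags assigned to either end, variant 1 held 15 of 21 in KO and 23 of 36 in WT liver, or 71.4% (47.8% to 88.7%) and 63.9% (46.2% to 79.2%). In cerebellum it held 51.0% in KO and 49.1% in WT, and in hippocampus 52.6% and 39.5%. The intervals of all 6 libraries overlapped.

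Across the 3 tissues, with tissue as a block, 1 of 11375 genes rose and 10 fell in KO (edgeR, adjusted p under 0.05), which is 0.00879% and 0.0879%. Of the 10 iron genes 9 were fitted, Hfe2 being too scarce. The fitted log2 was -5.07 for Hamp2 and -1.08 for Hamp, and lay between -0.29 for Slc40a1 and 0.14 for Slc11a2 for the other 7. For Hamp2 most tags were in liver, where the ratio was -5.68. In cerebellum, at 6 and 7 tags, it was -0.18, and in hippocampus, at 2 and 23 tags, -3.63. The fitted Hamp2 value is thus not one that the 3 tissues share. No p is given, since the genes were chosen with this contrast known. DESeq2 gave -3.32 for Hamp2, and without liver the fit gave 0.34 for Slc40a1 and -0.86 for Tfr2.

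Beyond the 10 genes, 85 others of iron biology were listed in 4 groups, chosen with earlier results of these data known, of which 81 were in the table. Of the 70 tested across tissues none rose or fell in KO at an adjusted p under 0.05 (edgeR). At an unadjusted p under 0.05 (edgeR), 2 of the 70 were higher, Acvr2a and Alas2, and 2 lower, Hpx and Nfs1. Over all 11375 genes tested, 221 were higher and 332 lower at that threshold, so nothing is read from these counts. DESeq2 called 0 of the 70 at the adjusted threshold. It called 1 lower at the unadjusted one, beside 93 lower of all 11375 genes. Without the liver libraries 2 fell, Hpx (-1.96) and Hp (-1.77), beside 0.739% of all genes in that fit, and without hippocampus 1 fell, Alas1 (-0.76), beside 0.294%. The median log2 of the 70 was -0.02, against -0.0040 over all genes tested.

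Among the regulators of hepcidin, 24 were listed and 18 measured in liver, and 1 was higher and none lower by the size rule in KO against WT liver, beside 1.55% and 3.26% of all genes measured there. Id1, a target gene of BMP signalling, had 28 and 14 tags, 29.9 CPM in KO and 8.89 CPM in WT liver (log2 1.75, interval 0.77 to 2.79). The inhibitory Smad genes, which BMP signalling also induces, stood at 23.5 and 23.5 CPM for Smad6 (log2 0.00, interval -0.83 to 0.80) and at 13.9 and 19.7 CPM for Smad7 (log2 -0.50, interval -1.56 to 0.47). Of these 3 target genes, Id1 alone had an interval that excluded equality. Tmprss6, the liver protease that cleaves hemojuvelin, stood at 873 and 750 CPM (log2 0.22, interval 0.09 to 0.35), and Hfe at 48.0 and 34.9 CPM (log2 0.46, interval -0.14 to 1.05). Bmp6, the ligand that rises with iron, had 1 tag in KO liver and 0 in WT liver, under the floor. Bmp2, the other main ligand from liver endothelium, was lowest of the 18 measured at -0.63 (-1.45 to 0.14).

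Of the genes of iron and haem transport, 18 were measured in liver, 3 were higher by the size rule and none lower, beside the same 1.55% and 3.26%. Hp (haptoglobin, which binds free haemoglobin) stood at 10929 CPM in KO and 4391 CPM in WT liver (log2 1.32, interval 1.27 to 1.36). Lcn2 (lipocalin 2, which binds siderophores) stood at 168 and 70.5 CPM (log2 1.25, interval 0.89 to 1.61), and Hmox1 (haem oxygenase 1) at 53.4 and 20.3 CPM (log2 1.39, interval 0.72 to 2.08). Hp and Lcn2 are also acute phase genes, and that list had 18 of 18 genes measured in liver, 3 higher and 1 lower, with a median of 0.44. It shares Hp, Lcn2 and Hpx with the transport list, and of its 15 other genes 1 was at least 2-fold higher and 1 at least 2-fold lower, with a median of 0.39. Hpx (hemopexin, which binds haem), at 12943 and 9321 CPM in liver (log2 0.47), was lower in KO brain, at 14.1 and 34.8 CPM in cerebellum (log2 -1.31) and 10.98 and 66.5 CPM in hippocampus (log2 -2.60). Hp and Cp (ceruloplasmin, a ferroxidase) were likewise lower in KO hippocampus, by log2 values of -2.93 and -1.46, beside the hepatocyte markers given above.

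Among iron regulatory proteins and mitochondrial iron genes, 1 gene of each list was lower by the size rule in liver and none higher, beside 3.26% and 1.55% of all genes measured. Of 7 genes of iron regulatory proteins and their targets measured in liver, Cdc42bpa, a kinase gene with a known iron responsive element, was lower at 8 and 37 tags (log2 -1.46, interval -2.77 to -0.34), and Alas2, the erythroid start of haem synthesis, was highest at 214 and 142 CPM (log2 0.60). The red cell markers, among them Hba-a1, include Alas2 and without it summed to 779 CPM in KO and 387 CPM in WT liver. Of 26 mitochondrial genes measured in liver, Alas1, the first enzyme of haem synthesis in liver, alone passed, at 110 and 318 CPM (log2 -1.53, interval -1.85 to -1.22). Glrx5, which passes on iron-sulphur clusters, was highest at 0.58. In cerebellum 1 of 56 measured genes of the 4 groups was lower, Hpx, and 0 higher, beside 0.316% and 0.14% of all genes. In hippocampus, of 53 measured, Acvr2a, an activin receptor, was higher (64 and 26 tags, log2 1.19) and Hp, Hpx and Cp were lower, beside 0.443% higher and 1.05% lower of all genes.

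Between liver and brain the 4 groups changed widely. Of 75 tested, 50 rose and 6 fell in liver (edgeR, adjusted p under 0.05), beside 33.8% and 36.3% of all genes, with a median log2 of 1.41 against -0.16 over all genes. Iron and haem transport had 14 of 20 higher and 0 lower, led by Hp (8.87), Hpx (8.83), Steap4, a metalloreductase (7.39), and Cp (6.81). Of the mitochondrial and haem genes 22 of 27 rose and 1 fell. Hepcidin regulators had 10 of 21 higher, with Tmprss6 at 8.04 (adjusted p = 2.38e-17), and 2 lower, Neo1, the hemojuvelin-binding neogenin (-1.94), and Fkbp1a (-1.87). Of the 7 iron regulatory protein genes and targets, 4 rose, Aco1 (iron regulatory protein 1) by 4.07, and 3 fell. With library totals the counts over the 4 groups were 32 higher and 28 lower, beside 16.7% and 66.8% of all genes. Between cerebellum and hippocampus, where 13.5% of all genes rose and 15.8% fell, 7 of the 75 rose, led by Steap2 (3.02) and Alas2 (2.07), and 5 fell, led by Steap3 (-1.78) and Fkbp1a (-1.39), with a median of 0.07. The Steap3 call was lost in DESeq2 (-1.86) and without the KO cerebellum (-1.89), WT cerebellum (-1.66) or WT hippocampus (-1.56) library. In DESeq2 4 rose and 2 fell, beside 6.07% and 8.92% of all genes.

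Among the 5 genes most alike to Hamp over the 6 libraries, by Pearson r of log2(CPM + 1) among 9382 genes, were Pter, Acss2, Hpd and Asgr2 (r 0.9995 to 0.9999). Hpd had 4350 and 7849 tags in KO and WT liver, 23 and 42 in cerebellum, and 22 and 80 in hippocampus. Like Hamp, it was high in both livers and lowest in the KO brain libraries. Those most alike to Hamp2 were Chmp1b, Ngly1, 8430406I07Rik, Adpgk and Tab2 (r 0.9885 to 0.9918), which had like amounts in brain and, in liver, log2 values of only -0.44 to -1.10, since r does not weigh the size of a change. The 6 libraries share tissues and pools, so these are descriptions.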

How the data were processed

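Polyadenylated RNA was profiled by MACE in 6 pooled libraries. The authors deposited raw counts, 1 row for each set of RefSeq records that a tag matched, split by strand and not normalized (per the file headers). Base calling used CASAVA 1.8.2 according to the submitters' processing notes, which also name build mm9, although the deposited table refers to a GRCm38 set. No aligner is named in the sources used here. Where the protocol text speaks of midbrain and other ages, the sample labels (hippocampus, 6 months) were followed.

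Sense counts were summed per symbol. A row shared with predicted genes or pseudogenes went to its named gene, and rows of several named genes stayed apart. Tags on other sequence sets (22.5% to 29.6% of tags) and without a match (7.21% to 8.83%) stayed out of library sizes. Ratios within a tissue used TMM-scaled CPM with exact 95% Clopper-Pearson counting intervals and a floor of 3 tags. Fits used edgeR 4.0.16 (quasi-likelihood, TMM, filterByExpr, Benjamini-Hochberg at 0.05) in R 4.3.3, tested on simulated counts, with DESeq2 1.42.0 as an alternative. With genotype and tissue both in the fit, the p-values measure how the KO against WT difference varied between tissues, not the spread between animals. Alternatives were other scalings, no filter, antisense tags added, DESeq2, no genotype or tissue block and single libraries left out. Sequences were read from RefSeq promoters (GRCm38.p6) and GENCODE M21 transcripts.

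The 10 genes, the other lists and the tests were chosen with earlier results of these data known. Genes could be named beside the 10 if they were the highest or lowest of their list in a tissue, passed the size rule or a fit, were 1 of 6 regulators of hepcidin or of the 5 genes most alike to each hepcidin, or were the most abundant marker of a list. Xist, Prlr, the LOC100862446 copy and Atxn2 were named as checks after their values were seen. Some genes that the rule names are not reported here.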

Additional observations from a re-analysis of the deposited data

Results flagged for a closer look

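A few KO against WT ratios had counting intervals on opposite sides of equality in 2 tissues. Each value below is the difference of 2 log2 ratios and rests on 4 libraries; the difference itself was not tested. Tfr2 differed by -2.0 between hippocampus and liver, with 16 and 40 tags in KO and WT hippocampus and 699 and 794 tags in liver. Trf differed by 0.93 between cerebellum and hippocampus, being higher in KO cerebellum and lower in KO hippocampus. Fth1 differed by -0.75 between cerebellum and liver and by -0.66 between hippocampus and liver. Ftl1 differed by -0.63 between hippocampus and liver. Both ferritin chains were thus higher in the KO liver library and, save Ftl1 in cerebellum, lower in the KO brain libraries, by small factors. Hepatocyte markers were lower in the KO brain libraries too, and their part in the brain values of Tfr2, Trf and ferritin was not tested.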

How the results depend on the processing

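Levels of scarce genes are limited by depth: in brain Hamp2 and Hfe2 had at most 23 and 5 tags per library. In hippocampus 2 of the 10 genes were lower by size with library totals and with DESeq2 size factors, against 1 with TMM, Tfr2 being added. Of the 4 other groups, 0 were higher in hippocampus with antisense tags added (1 without), and 1 was lower in liver with library totals (2 with TMM). Across tissues 1 of them fell without the filter on low counts, against 0 with it, and leaving out a tissue gave 0 to 2.

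For liver against brain, library totals gave 3 of the 10 genes lower, Tfrc, Fth1 and Slc11a2, and 32 higher and 28 lower of the other groups. Fits without a single library leave 1 library in its tissue, so their counts of genes passing are not given. With library totals genes that turned lower in liver included Abcb10 -0.10, Epas1 -0.036, Fdxr -0.46, Fth1 -0.50, Isca2 -0.31, Iscu -0.10, Mon1a -0.73, Nfs1 -0.23, Nfu1 -0.077, Pcbp1 -0.60 and Uros -0.30; that scaling moved the median of all genes alike.

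For cerebellum against hippocampus, 0 of the 10 genes rose with DESeq2 size factors, in DESeq2 and without the genotype block (no replicate block), and 0 fell in DESeq2, against 1 each. Leaving out single libraries gave 0 to 1 higher and 0 to 3 lower of the 10, and 3 to 12 higher and 1 to 9 lower of the others. Library totals gave 11 higher of the others, beside 2147 of all 12906 genes. DESeq2 gave 4 higher and 2 lower, beside 6.07% and 8.92% of all genes. The cause of these shifts was not tested. Labels number each pool 1, so the numbers pair nothing beyond genotype.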
